A study of Mus musculus with 6 samples.

Results

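The mouse fatty acid desaturases Fads1, Fads2 and Fads3 and the fatty acid elongases Elovl1 to Elovl7 were chosen by name. These 10 genes, 3 desaturases and 7 elongases, were all among the 17577 genes listed for each oocyte library. Transcripts of germinal vesicle oocytes were measured with a version of Smart-seq2, which copies polyadenylated RNA into cDNA and amplifies it before sequencing. According to the methods, each cDNA was made from 1 oocyte, and the oocytes were taken from antral follicles of females given gonadotropin. There were 6 libraries from mice of the C57BL/6 J strain aged 12 weeks. The 3 WT libraries came from wild-type mice and the 3 Bnc1tr/tr libraries from mice in which both Bnc1 alleles carry a frameshift. Bnc1 encodes basonuclin 1, a zinc finger protein of the germline. The mutation is present in every cell of the animal and not in the oocyte alone. Nothing in the labels says whether the 3 libraries of a group came from different mice. A figure legend of the paper speaks of 3 biological replicates in each group, analysed in duplicate, without defining the replicate. The p-values therefore measure the spread between these libraries, which may be partly technical.

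Long-chain fatty acids come from the diet or from cytosolic synthesis and are then modified on the endoplasmic reticulum. Elongases of the ELOVL family catalyse the first and rate-limiting step of each elongation cycle, the condensation of an acyl-CoA with malonyl-CoA. A reductase, a dehydratase and a second reductase complete the cycle. Desaturases of the FADS family place further double bonds near the carboxyl end of polyunsaturated chains, so that elongases and desaturases acting in turn make arachidonic, eicosapentaenoic and docosahexaenoic acid from dietary precursors. The substrates of the elongases differ. ELOVL1, ELOVL3 and ELOVL7 act mainly on saturated and monounsaturated chains and ELOVL6 on saturated chains of medium length, whereas ELOVL2 and ELOVL5 act on polyunsaturated chains and ELOVL4 makes very long chains.

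Elovl1, Elovl5 and Elovl7 held most of the transcript of the family in both genotypes, and the stretches just upstream of their start sites are shown for that reason. Each is the 250 bases before a RefSeq start site in GRCm38.p6, 5′ to 3′ on the strand of the gene. Capitals mark the letters CCAAT (the CCAAT box) and GGGCGG (the GC box), read on either strand, so that ATTGG and CCGCCC are the same motifs on the opposite strand. The windows were chr4:118427843-118428092 for Elovl1, the more upstream of its 2 listed start sites, chr9:77917115-77917364 for Elovl5 and chr13:108214154-108214403 for Elovl7, all on the plus strand. Not all of this sequence is upstream of the gene. The Elovl1 window lies within the gene, which starts at 118426874, and the Elovl7 window runs past its gene start at 108214326. In the Elovl5 window GENCODE places exon sequence of Elovl5.
Elovl1: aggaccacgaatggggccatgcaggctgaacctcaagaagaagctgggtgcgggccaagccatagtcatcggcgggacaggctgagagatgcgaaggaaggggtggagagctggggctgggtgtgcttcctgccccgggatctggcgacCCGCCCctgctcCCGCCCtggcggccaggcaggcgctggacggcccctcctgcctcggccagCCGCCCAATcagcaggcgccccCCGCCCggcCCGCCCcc
Elovl5: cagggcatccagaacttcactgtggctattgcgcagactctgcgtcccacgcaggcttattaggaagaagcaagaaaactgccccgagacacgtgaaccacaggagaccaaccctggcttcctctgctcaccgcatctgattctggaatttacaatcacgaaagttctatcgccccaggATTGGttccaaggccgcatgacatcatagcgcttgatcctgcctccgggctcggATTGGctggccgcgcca
Elovl7: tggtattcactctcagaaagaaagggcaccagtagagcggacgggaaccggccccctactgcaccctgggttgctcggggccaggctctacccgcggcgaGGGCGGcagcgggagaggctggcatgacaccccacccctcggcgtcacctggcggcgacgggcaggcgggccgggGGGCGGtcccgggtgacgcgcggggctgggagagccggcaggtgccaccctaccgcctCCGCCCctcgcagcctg
The Elovl1 window had 5 GC boxes and 1 CCAAT box, and the CCAAT box overlapped a GC box in the run CCGCCCAAT. The Elovl5 window had 2 CCAAT boxes and no GC box, and the Elovl7 window had 3 GC boxes and no CCAAT box. A window was found for 8 of the 10 genes, of which 3 held a CCAAT box and 6 a GC box. These counts are of genes with the motif in any window, and Elovl1 and Elovl2 had 2 windows each. The shares of all windows given next are per window, so the units differ. Among all 32851 windows of the same length, 33.8% held a CCAAT box and 32.7% a GC box. The letters TATAAA (the TATA box) and TCACNCCAC (a sterol regulatory element) were in the windows of 0 of the 8 genes, against 12.4% and 1.05% of all windows. A match of letters is a description and not a binding site.

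The genotype was first checked on Bnc1 itself. FPKM (fragments per kilobase of transcript per M, or mega, mapped fragments) of Bnc1 were 9.04, 6.51 and 5.83 in Bnc1tr/tr and 13.17, 12.54 and 16.23 in WT, and the groups did not overlap. The log2 fold change was -0.89 (SE 0.20, limma adjusted p = 0.0090). The allele is a small deletion within an exon, so transcript of the gene is still counted and this level checks the labels only indirectly. All 15 oocyte markers of a list were above 0 in every library, with summed levels of 10440 to 11964 FPKM in Bnc1tr/tr and 8571 to 13126 FPKM in WT. Of the 10560 genes that reached 1 FPKM on average over the libraries, 24.1% passed the test as higher in Bnc1tr/tr and 7.68% as lower. The test called a gene where its adjusted p was under 0.05 and its log2 fold change was beyond 0.5 in size. Among the oocyte markers, Dazl (log2 fold change 0.84, limma adjusted p = 0.0035) and Mos (0.90, limma adjusted p = 0.019) were called higher. Zp2 (-0.74, limma adjusted p = 0.032) and Nlrp5 (-0.62, limma adjusted p = 0.026) were called lower, and the other oocyte markers were not called. The median log2 fold change of the 10560 genes was 0.15, so the changes below are also given relative to that shift.

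Fads2, Elovl1, Elovl4 and Elovl5 rose in Bnc1tr/tr oocytes, Elovl7 did not pass the test, and the other 5 genes had a mean under 1 FPKM. Of the 5 genes above this level, 4 were called higher and 0 lower by limma (0 were lower at an unadjusted p under 0.05), against the 24.1% and 7.68% of all genes given above. Fads2 and Elovl4 reached the level of 1 FPKM only through their values in Bnc1tr/tr, so they had to differ to be tested, and nothing is read from this count about the family as a whole. The 2 groups did not overlap for 8 of the 10 genes. Levels were higher in every Bnc1tr/tr library for 7 of them, against 28.2% of all genes above 0 in any library, and lower for 1, against 9.78%. Summed over the 10 genes, the level was 386.21, 370.78 and 384.35 FPKM in Bnc1tr/tr and 216.76, 184.26 and 167.9 FPKM in WT. Since FPKM is a share of the fragments of a library, more transcript of a gene and less of the other RNA cannot be told apart.

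**Figure D1:**
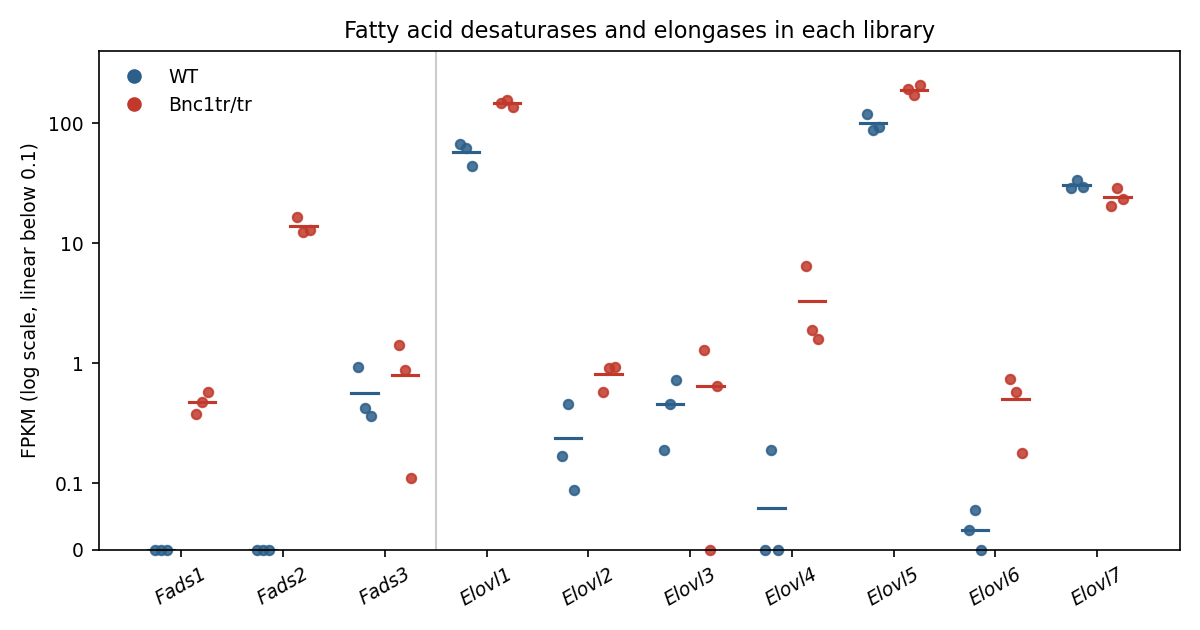
FPKM (log axis, linear below 0.1) of the 3 desaturases and 7 elongases in the 3 WT libraries (blue) and 3 Bnc1tr/tr libraries (red), with a point for each library and a bar at the group mean. Fads2 is at 0 in all WT libraries and between 12.34 and 16.34 FPKM in Bnc1tr/tr, Elovl1 and Elovl5 are higher in every Bnc1tr/tr library than in any WT library, and Elovl7 lies slightly lower.

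Among the desaturases, Fads2 showed the largest difference between genotypes. Fads2 encodes the delta-6 desaturase, which acts at the entry of the polyunsaturated pathway. Its level was 16.34, 12.34 and 12.95 FPKM in Bnc1tr/tr, or 13.9 ± 2.16 FPKM (SD, n = 3), and it was listed at 0 in all 3 WT libraries. The log2 fold change on the log2(FPKM + 1) scale was 3.89 (SE 0.17, limma adjusted p = 2.2e-06), or 3.74 relative to the median of all genes. Fads2 passed the filter only through Bnc1tr/tr. Dropping the filter cannot change the fold change of a gene, only its SE and adjusted p (SE 0.12, limma adjusted p = 0.00011). No linear fold is given against a group listed at 0, and the value on the log scale depends on the pseudocount, being 7.12 with a pseudocount of 0.1. A depth estimated from the spacing of low FPKM values put the Fads2 level at about 613 to 653 fragments in the Bnc1tr/tr libraries. In the WT libraries 3 fragments, the limit that a count of 0 allows, would have been 0.047 to 0.068 FPKM, a limit for counting error only since cDNA was amplified without molecular identifiers.

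Genes that every cell uses were present in the WT libraries. Of 247 such genes in 6 families (cytosolic ribosomal proteins, proteasome, RNA polymerase II, respiratory complex I, CCT chaperonin and translation initiation), 0 were listed at 0 in all 3 WT libraries. This check covers these families only. It does not measure how often a gene at the level of Fads2 would be listed at 0. Fewer genes reached 1 FPKM in a WT library (9518 to 9748) than in a Bnc1tr/tr library (10682 to 11035). Estimated depth was 15.15 to 21.95 M fragments in WT and 13.2 to 17.2 M in Bnc1tr/tr. The part of this difference in the WT zeros of Fads2, Fads1 and Elovl4 was not tested. Of all 17577 genes, 2 were listed at 0 in every WT library and at 10 FPKM or more in every Bnc1tr/tr library, Fads2 and Bcl3, and 0 showed the opposite pattern. This count rests on its exact limits, and other genes fell just outside them. For 4930523C07Rik the levels were 12.59, 12.17 and 9.96 FPKM in Bnc1tr/tr and 0, 0 and 0.01 FPKM in WT. Hopx and Mmp3, given under other observations, also came close. In rank by mean level, Fads2 stood at 4655 of 17577 genes in Bnc1tr/tr oocytes.

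Fads1 and Fads3 were scarce. Fads1, the delta-5 desaturase that makes arachidonic and eicosapentaenoic acid, was 0.38, 0.47 and 0.58 FPKM in Bnc1tr/tr and 0 in all WT libraries, where 3 fragments would have been 0.042 to 0.061 FPKM. These Bnc1tr/tr values stand for about 16, 26 and 32 fragments. With no filter on the mean, Fads1 was called higher (log2 fold change 0.56, SE 0.08, limma adjusted p = 0.0071), when 15.6% of 17574 genes were called higher and 3.83% lower. Fads3, a paralog that desaturates sphingoid bases and some monounsaturated acids, was 1.41, 0.87 and 0.11 FPKM in Bnc1tr/tr and 0.92, 0.42 and 0.36 FPKM in WT. The groups overlapped for Fads3, and the unfiltered log2 fold change of 0.14 (95% interval -0.62 to 0.91) did not pass the test (limma adjusted p = 0.80).

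The 3 desaturases lie together on chromosome 19 (GRCm38.p6), within 156 kb. Fads3 (chr19:10040855-10060113, plus strand) and Fads2 (chr19:10062765-10101503, minus strand) have their 3′ ends 2652 bases apart, and Fads1 (chr19:10182877-10196874, plus strand) starts 81374 bases from the start of Fads2. Between their transcripts, 0.729% of the 31-base words of Fads2 occurred in other genes, mainly Fads3, and 0% of those of Fads1. Of the 9 genes listed within 100 kb of the cluster, the 6 that are not desaturases were examined after the values of the desaturases were known. Fth1, the ferritin heavy chain, was 515.19, 426.19 and 374.59 FPKM in Bnc1tr/tr and 223.52, 225.9 and 180.23 FPKM in WT, and rose by a log2 fold change of 1.06 (SE 0.19, limma adjusted p = 0.0028). Rab3il1 (log2 fold change 0.20, limma adjusted p = 0.74), Fen1 (0.42, limma adjusted p = 0.23) and Tmem258 (-0.06, limma adjusted p = 0.84) did not pass the test. Best1 and Dagla were at or near 0 in all libraries.

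**Figure D2:**
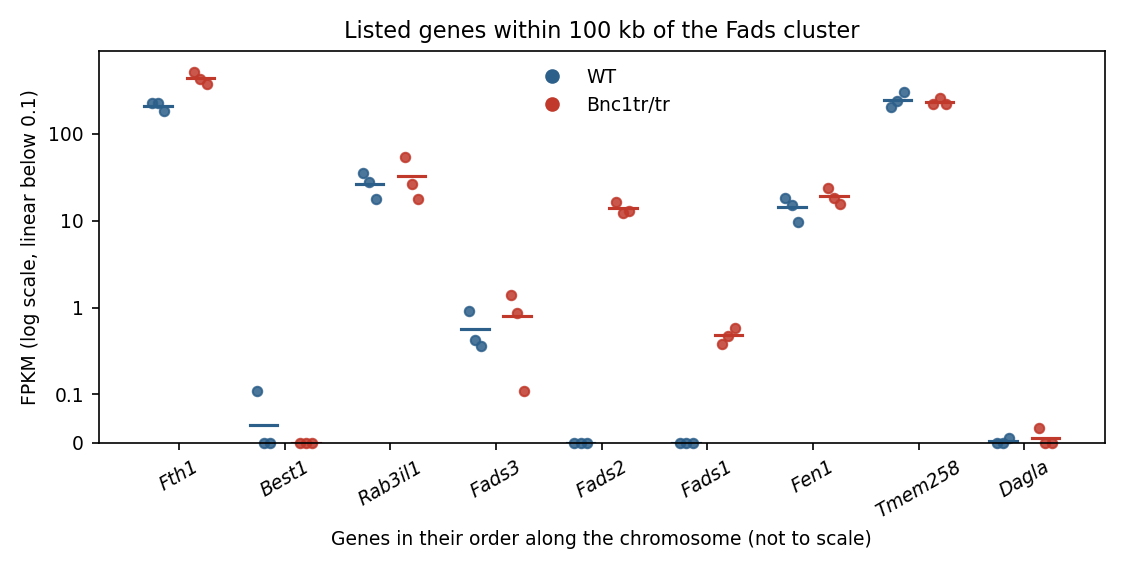
FPKM (log axis, linear below 0.1) of the 9 listed genes within 100 kb of the desaturase cluster, in their order along the chromosome but not to scale, with a point for each WT (blue) and Bnc1tr/tr (red) library and a bar at the group mean. Fads2, Fads1 and Fth1 have groups that do not overlap, whereas Rab3il1, Fen1 and Tmem258 overlap between genotypes.

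Among the elongases of saturated and monounsaturated chains, Elovl1 rose, while Elovl7 did not pass the test. Elovl1 makes saturated and monounsaturated chains used in sphingolipids. It was 147.55, 155.31 and 136.28 FPKM in Bnc1tr/tr and 67.14, 61.86 and 44.13 FPKM in WT. Every Bnc1tr/tr library was above every WT library, and the means were 146.4 ± 9.57 and 57.7 ± 12.1 FPKM (SD, n = 3 each), a ratio of 2.54. The log2 fold change was 1.35 (SE 0.20, 95% interval 0.91 to 1.79, limma adjusted p = 0.00096), or 1.2 relative to the median of all genes. Elovl1 (chr4:118426874-118432953, plus strand) overlaps exons of Cdc20 on the opposite strand, and reads there cannot be assigned without strand, but 0.816% of its 31-base words were shared.

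Elovl7 is an elongase of saturated chains. It was 20.32, 28.56 and 23.13 FPKM in Bnc1tr/tr and 28.76, 33.55 and 29.22 FPKM in WT, with means of 24.0 ± 4.19 and 30.5 ± 2.64 FPKM (SD, n = 3 each). The Bnc1tr/tr values were all lower, though by little at the edge, where 28.56 FPKM stood beside 28.76 FPKM. The log2 fold change of -0.34 (SE 0.18, 95% interval -0.75 to 0.07, limma adjusted p = 0.18) did not pass the test, and relative to the median of all genes it was -0.49. This call depended on the scaling, since Elovl7 was called lower under upper-quartile scaling (-0.61, limma adjusted p = 0.035) and under median-ratio scaling (-0.56, limma adjusted p = 0.049). Elovl7 is at chr13:108214326-108287109 on the plus strand.

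Elovl3 and Elovl6 were near the limit of measurement. Elovl3, an elongase known from brown fat, liver and skin, was 1.28, 0 and 0.65 FPKM in Bnc1tr/tr and 0.19, 0.46 and 0.73 FPKM in WT. The Elovl3 groups overlapped (unfiltered log2 fold change 0.11, SE 0.32, limma adjusted p = 0.86). Elovl6, which extends palmitic to stearic acid, was 0.74, 0.58 and 0.18 FPKM in Bnc1tr/tr and 0.03, 0.06 and 0 FPKM in WT. The groups did not overlap, yet the unfiltered log2 fold change of 0.52 (SE 0.16, limma adjusted p = 0.067) was not called, and these WT values correspond to about 0 to 6 fragments. Of the words of Elovl6, 6.52% occurred in other genes, mainly Gm11295 and Gm48412, and Gm35986 overlaps its exons on the opposite strand, so its value is less certain.

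Among the elongases of polyunsaturated and very long chains, Elovl5 and Elovl4 rose. Elovl5 extends the products of the delta-6 desaturase and was the most abundant gene of the family in both genotypes. Its levels were 191.22, 169.84 and 207.95 FPKM in Bnc1tr/tr and 119.55, 87.26 and 93.37 FPKM in WT. The groups did not overlap, and the means of 189.7 ± 19.1 and 100.1 ± 17.2 FPKM (SD, n = 3 each) had a ratio of 1.90. The log2 fold change was 0.92 (SE 0.18, 95% interval 0.51 to 1.34, limma adjusted p = 0.0050), or 0.78 relative to the median of all genes. Elovl5 (chr9:77917365-77984519, plus strand) shared 0% of its words with other genes.

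Elovl4 makes the very long chains of skin, retina and testis. It was 6.39, 1.90 and 1.59 FPKM in Bnc1tr/tr and 0, 0.19 and 0 FPKM in WT. Replicate 1 of Bnc1tr/tr stood well above the other two, and all 3 were above every WT library. The log2 fold change was 1.85 (SE 0.36, limma adjusted p = 0.0045), or 1.70 relative to the median of all genes. Elovl4 passed the filter only through Bnc1tr/tr. With no filter its fold change could not differ, and only its SE and adjusted p did (SE 0.41, limma adjusted p = 0.028). Without Bnc1tr/tr replicate 1 the mean of Elovl4 fell under 1 FPKM, and the fit with no filter then gave 1.37 (SE 0.12, limma adjusted p = 0.0060). Elovl4 (chr9:83778692-83806305, minus strand) lies on the same chromosome as Elovl5.

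Elovl2, which makes the precursors of docosahexaenoic acid, was 0.58, 0.91 and 0.93 FPKM in Bnc1tr/tr and 0.17, 0.46 and 0.09 FPKM in WT, with means in a ratio of 3.36. The lowest Bnc1tr/tr value was above the highest WT value. With no filter Elovl2 was called higher by a small margin (log2 fold change 0.55, SE 0.15, limma adjusted p = 0.049), and in 9 of 10 alternatives the call was lost, with adjusted p values from 0.041 to 0.13 over all 10. Over the 10 genes and with no filter, 6 were called higher and 0 lower, against 15.6% and 3.83% of all genes.

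**Figure D3:**
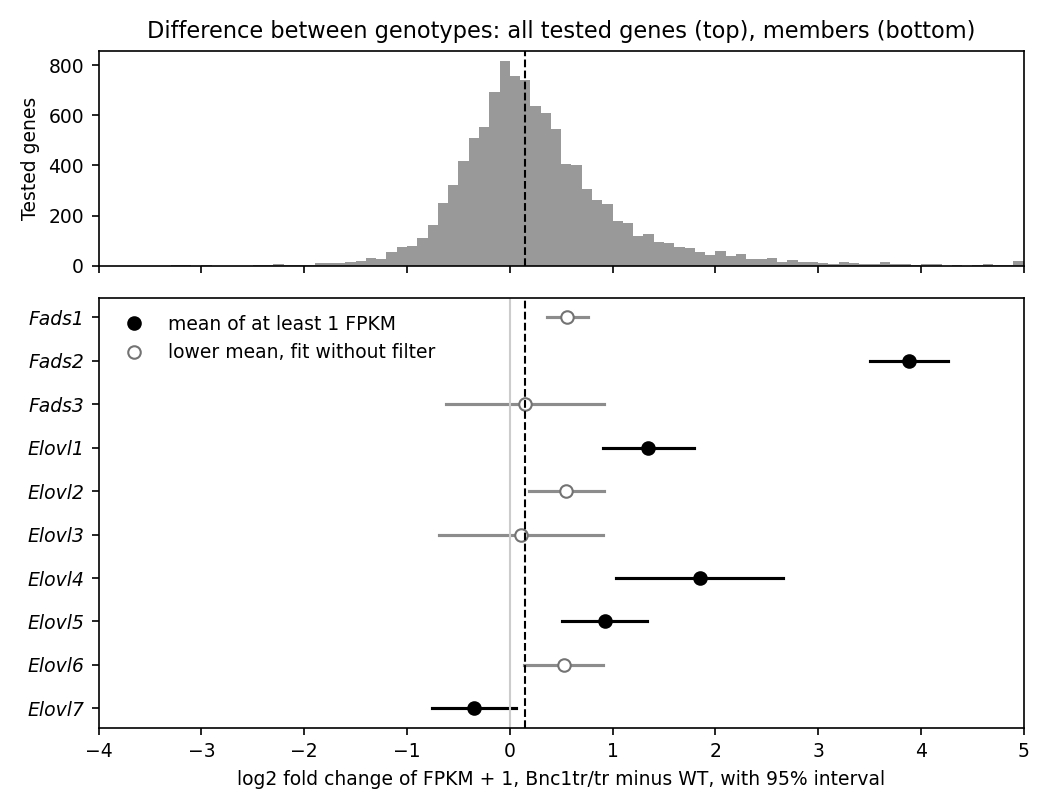
Top, the number of tested genes at each log2 fold change of FPKM + 1 (Bnc1tr/tr minus WT), with the values beyond the axis placed in its last bins. Bottom, the log2 fold change and 95% interval of each desaturase and elongase, filled where the mean was at least 1 FPKM and open where it was lower and the fit had no filter. The dashed line is the median of all tested genes (0.15), and the intervals of Fads2, Elovl1, Elovl4 and Elovl5 lie above it while that of Elovl7 lies below it.

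In WT oocytes Elovl5, Elovl1 and Elovl7 stood in that order, with ranges that did not meet, and the other 7 genes followed below 1 FPKM with ranges that overlapped from each to the next. In Bnc1tr/tr oocytes the order Elovl5, Elovl1, Elovl7, Fads2, Elovl4 had ranges that were apart at each step, and the other 5 genes overlapped from each to the next. By mean level among all listed genes, Elovl5 ranked 1281 in WT and 701 in Bnc1tr/tr, Elovl1 ranked 1913 and 927, and Elovl7 ranked 2840 and 3482. Between 5 and 7 of the 10 genes reached 1 FPKM in a Bnc1tr/tr library, and 3 in each WT library.

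The make-up of the family also differed. Elovl7 was 13.3 to 18.2% of the summed level in WT and 5.26 to 7.70% in Bnc1tr/tr. The desaturases were 0.214 to 0.424% in WT, all of it Fads3, and 3.55 to 4.69% in Bnc1tr/tr, most of it Fads2. Elovl1 took 26.3 to 33.6% in WT and 35.5 to 41.9% in Bnc1tr/tr, ranges that did not meet. Elovl5 took 47.4 to 55.6% in WT and 45.8 to 54.1% in Bnc1tr/tr, ranges that overlapped. The ratio of Elovl7 to Elovl1, which multiplying a library by a constant cannot move, was 0.428, 0.542 and 0.662 in WT and 0.138, 0.184 and 0.170 in Bnc1tr/tr. The ratio of Elovl5 to Elovl1 was 1.78, 1.41 and 2.12 in WT and 1.30, 1.09 and 1.53 in Bnc1tr/tr, and these overlapped. With 3 libraries against 3, an exact permutation test of a ratio cannot go below p = 0.1, so no test was run on the ratios.

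**Figure D4:**
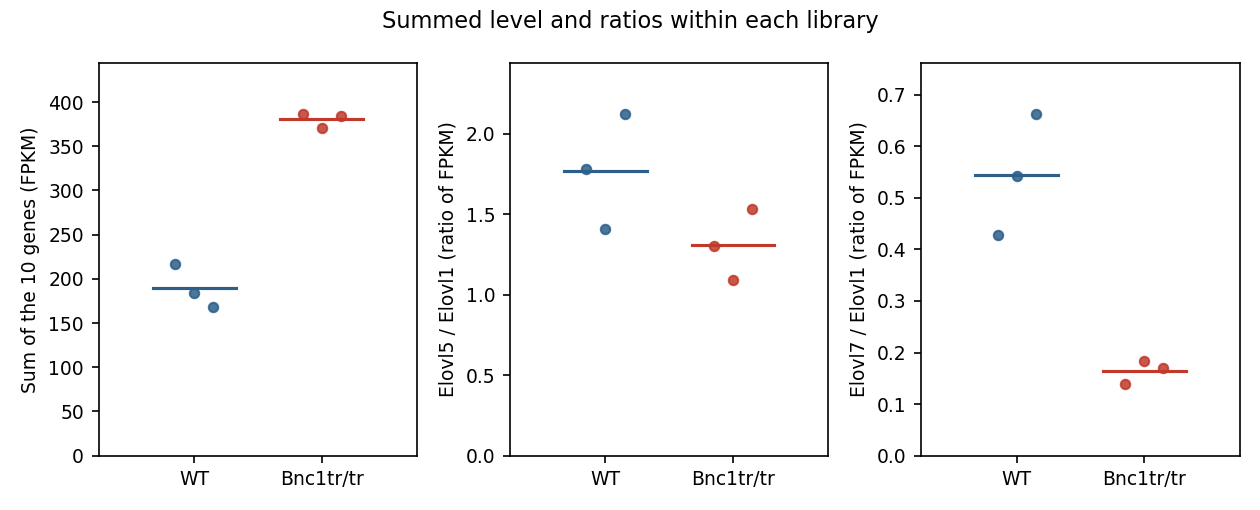
The summed FPKM of the 10 genes (left), the ratio of Elovl5 to Elovl1 (middle) and the ratio of Elovl7 to Elovl1 (right) within each WT (blue) and Bnc1tr/tr (red) library, with bars at the group means. The sum is 167.9 to 216.76 in WT and 370.78 to 386.21 in Bnc1tr/tr, and Elovl7 over Elovl1 is lower in every Bnc1tr/tr library than in any WT library, while Elovl5 over Elovl1 overlaps.

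Markers of other cells of the ovary also differed between the libraries. Summed over the 14 listed of 15 granulosa and cumulus markers, the level was 50.5 to 66.5 FPKM in Bnc1tr/tr and 23.5 to 41.7 FPKM in WT. Of the 6 of them that were tested, Fshr, the receptor of follicle-stimulating hormone (0 to 0.74 FPKM in WT and 4.54 to 5.83 FPKM in Bnc1tr/tr, log2 fold change 2.24, limma adjusted p = 0.00011), Cyp11a1 (1.61, limma adjusted p = 0.0013) and Kitl (0.68, limma adjusted p = 0.018) were called higher. The others tested were not called. Cyp19a1, the largest part of the sum, was 27.49 to 44.41 FPKM in Bnc1tr/tr and 17.41 to 28.98 FPKM in WT (0.57, limma adjusted p = 0.10). Nr5a2 had a log2 fold change of 0.42 (limma adjusted p = 0.14). Inha went the other way (-1.11, limma adjusted p = 0.24), at 0.09 to 1.81 FPKM in Bnc1tr/tr and 0.04 to 6.78 FPKM in WT. The granulosa factor Foxl2 was 0 to 0.03 FPKM in WT and 0 in Bnc1tr/tr, and Amhr2 and Lhcgr were also at 0 in all Bnc1tr/tr libraries.

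For the 5 listed of 7 theca and stroma markers the sum was 5.76 to 9.76 FPKM in Bnc1tr/tr and 1.40 to 2.09 FPKM in WT. The matrix proteoglycan Dcn was 4.93 to 6.95 FPKM in Bnc1tr/tr and 1.36 to 2.02 FPKM in WT (log2 fold change 1.44, limma adjusted p = 0.00051). With no filter Pdgfra was called higher (0.50, limma adjusted p = 0.013), while Lum, at 0.41 to 2.23 FPKM in Bnc1tr/tr and 0 in WT, was not called (limma adjusted p = 0.099). Col1a1 was 0 to 0.01 FPKM in all libraries. For the 4 listed of 5 endothelial markers the sum was 5.38 to 8.10 FPKM in Bnc1tr/tr and 10.1 to 11.7 FPKM in WT, and Cdh5 was 0 to 0.02 FPKM in all libraries. This lower sum came from Pecam1 (3.16 to 5.13 FPKM in Bnc1tr/tr and 7.55 to 9.92 FPKM in WT, log2 fold change -1.02, limma adjusted p = 0.0048), whereas Kdr was called higher with no filter (0.76, limma adjusted p = 0.049).

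The 8 immune and blood markers summed to 20.57, 62.07 and 1.83 FPKM in Bnc1tr/tr and 3.0, 2.01 and 1.39 FPKM in WT. The lowest of these sums in Bnc1tr/tr was that of replicate 3, where the granulosa and cumulus markers summed to 51.77 FPKM and the theca and stroma markers to 5.76 FPKM. In that library Ptprc, Lyz2, Hba-a1 and Hbb-bs were listed at 0, and Cd68 (0.96 FPKM), C1qa (0.61 FPKM), Adgre1 and Csf1r (0.13 FPKM each) were not. With no filter C1qa was called higher (log2 fold change 1.12, limma adjusted p = 0.013), and it was at 0 in all WT libraries. The part of the granulosa, theca, stroma, endothelial, immune and blood markers in the differences of the desaturases and elongases was not tested.

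The rest of the pathway was described by 5 lists grouped by function. The genes named in each were all those called and up to 2 of the most abundant that were not called.

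Of 7 other acyl and sphingolipid desaturases, 2 were tested, and 1 was called lower and 0 higher, with a median log2 fold change of -0.91 against 0.15 over all genes. Scd3, a stearoyl-CoA desaturase that makes monounsaturated chains, was 2.95, 2.94 and 2.58 FPKM in Bnc1tr/tr and 8.93, 10.89 and 9.13 FPKM in WT. It fell by 1.47 on the log2 scale (SE 0.16, limma adjusted p = 0.00019), the opposite direction to Fads2, and 15.2% of its words occurred in other genes, chiefly Scd1 and Scd2, so its value is uncertain. Scd2, named here after its value was seen, was 0.58 to 0.68 FPKM in Bnc1tr/tr and 0 to 0.31 FPKM in WT. With no filter Scd2 was called higher (log2 fold change 0.50, SE 0.12, limma adjusted p = 0.031). Degs1, the dihydroceramide desaturase, had a log2 fold change of -0.35 (limma adjusted p = 0.14).

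Of 13 partners of the elongation cycle and electron carriers, 12 were listed and 11 tested, of which 2 rose, 0 fell and 9 did not pass, with a median of -0.04. Both that rose belong to the 3-hydroxyacyl-CoA dehydratases, enzymes of the third step of the cycle. At an unadjusted p under 0.05, 2 genes of the list were lower, and these were the other two dehydratases, named here after their values were seen. Hacd2 had a log2 fold change of -0.39 (limma adjusted p = 0.11) with groups that did not overlap, and Hacd3 had -0.94 (limma adjusted p = 0.12) with groups that overlapped. Hacd1 was 27.47, 28.42 and 24.67 FPKM in Bnc1tr/tr and 7.20, 5.28 and 11.04 FPKM in WT (log2 fold change 1.71, SE 0.24, limma adjusted p = 0.00078), with 33.9% of its words in other genes, mainly Gm11451 and Gm40841, so its value is uncertain. Hacd4 had a log2 fold change of 0.57 (SE 0.18, limma adjusted p = 0.037), with 10.3% of its words in other genes, and it lost its call without replicate 2 or 3 of Bnc1tr/tr or replicate 1 or 2 of WT. The last reductase of the cycle, Tecr (-0.36, limma adjusted p = 0.17), and the electron carrier cytochrome b5, Cyb5a (-0.31, limma adjusted p = 0.40), did not pass the test.

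Of 9 genes that supply fatty acid synthesis, 3 were tested and 0 were called in either direction by limma or had an unadjusted p under 0.05, with a median of 0.28. Me1, the malic enzyme that yields NADPH, had a log2 fold change of 0.03 (limma adjusted p = 0.91), and the citrate carrier Slc25a1 had 0.28 (limma adjusted p = 0.51). The synthase Fasn and the carboxylases Acaca and Acacb, which make palmitic acid and malonyl-CoA, were each under 1 FPKM in every library.

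Of 13 users of long and very long acyl chains, 6 were tested, of which 1 rose, 0 fell and 5 did not pass, with a median of 0.30. Abcd3, a peroxisomal membrane transporter of acyl chains, had a log2 fold change of 0.96 (SE 0.17, limma adjusted p = 0.0024). The ceramide synthases Cers5 (0.24, limma adjusted p = 0.44) and Cers6 (0.36, limma adjusted p = 0.16) did not pass the test.

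Of 11 transcriptional regulators of fatty acid synthesis, 9 were tested, of which 2 rose, 0 fell and 7 did not pass, with a median of -0.03. Nr1h3, the liver X receptor alpha, was 4.58, 7.29 and 5.48 FPKM in Bnc1tr/tr and 1.23, 1.11 and 0.73 FPKM in WT (log2 fold change 1.73, SE 0.20, limma adjusted p = 0.00026). Mbtps2, a protease that releases SREBP, had a log2 fold change of 0.77 (SE 0.21, limma adjusted p = 0.024), with 31.3% of its words in other genes, and it kept its call without WT replicate 3 but lost it without any other library. The SREBP retention factor Insig1 (-0.03, limma adjusted p = 0.92) and the SREBP escort Scap (-0.36, limma adjusted p = 0.52) did not pass the test. Srebf1, the gene of SREBP-1 itself and named here after its value was seen, was 2.79 to 4.62 FPKM in Bnc1tr/tr and 2.40 to 3.13 FPKM in WT (0.34, limma adjusted p = 0.22).

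**Figure D5:**
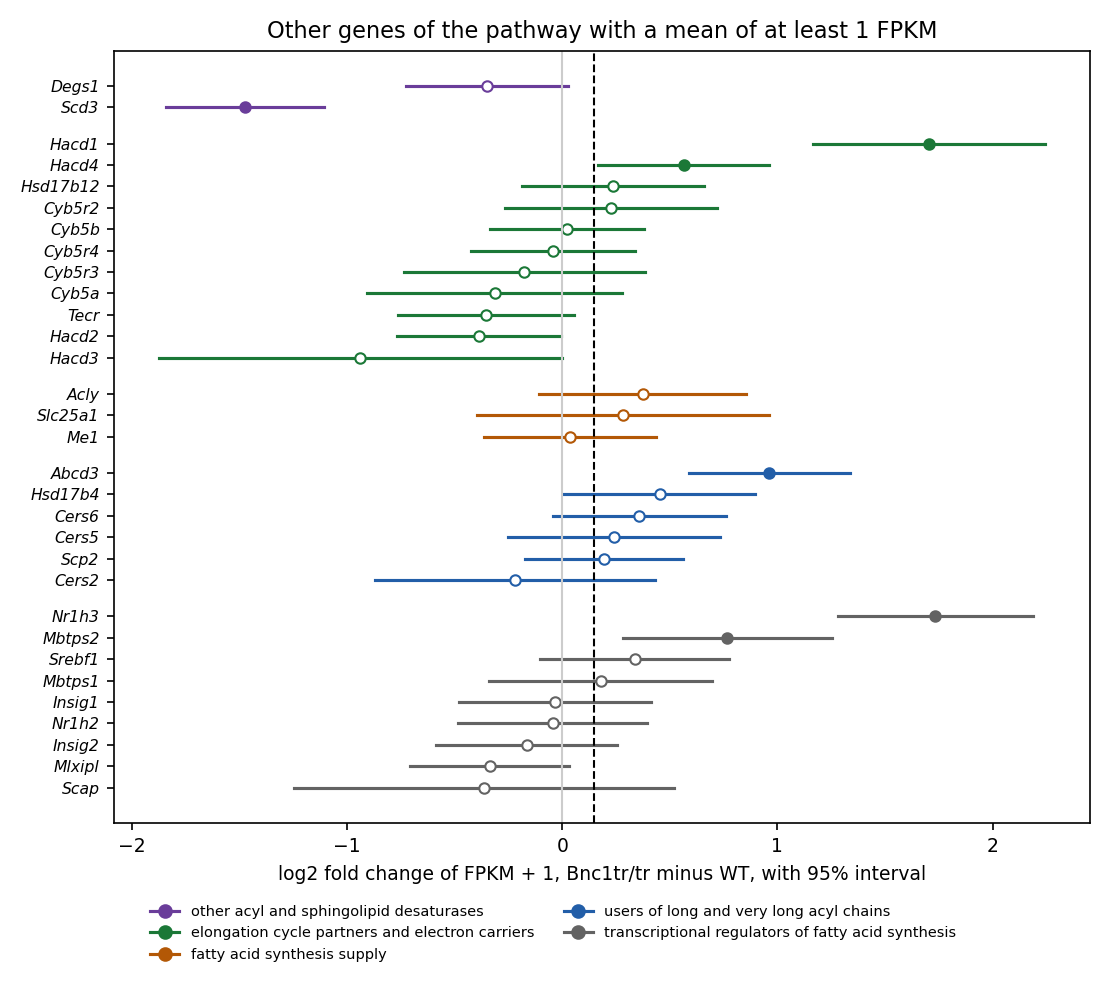
Log2 fold change of FPKM + 1 (Bnc1tr/tr minus WT) with its 95% interval for the 31 tested genes of the 5 pathway lists, coloured by list and filled where called. Scd3 (-1.47) is the filled point on the lower side, and Hacd1, Hacd4, Abcd3, Nr1h3 and Mbtps2 are filled on the higher side of the dashed line, the median of all tested genes (0.15).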

How the data were processed

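Transcripts of 6 oocyte libraries (3 Bnc1tr/tr, 3 WT, grouped by the genotype in the labels) were analysed. The authors deposited FPKM per gene, rounded to 2 decimals, for 17577 genes per library. The submitters' processing notes name HISAT2 2.0.4, Bowtie2 2.2.5, RSEM 1.2.12 and GRCm38.p6, without their roles, and the annotation and any filter were not given in the sources used here. FPKM totals were 657550 to 724550 per library. Depth, estimated from the spacing of low FPKM values, was about 13.2 to 21.95 M fragments and entered no test.

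Groups were compared with limma 3.58.1 (R 4.3.3, tested on simulated data) on the log2(FPKM + 1) scale. The fit took the 10560 genes that averaged 1 FPKM or more, with Benjamini-Hochberg adjustment over all of them. A gene was called where the adjusted p was under 0.05 and the log2 fold change beyond 0.5 in size. Fold changes on this scale understate those of low genes. Members with a lower mean were read from the same fit with no filter. Alternatives were a pseudocount of 0.1, no filter, a minimum of 5 FPKM, other scalings, other variance settings, a replicate block and leaving out each library. Transcript words of 31 bases came from GENCODE M21, and promoters and positions from RefSeq GRCm38.p6. The members, lists and named genes (in each pathway list, all called genes and up to 2 of the most abundant not called) were chosen with earlier results of these data known. Of the markers and pathway genes, those not in the tables were not analysed here. A gene of the list of users of acyl chains is not reported here.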

Additional observations from a re-analysis of the deposited data

How the results depend on the processing

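The calls of Fads2, Elovl1, Elovl5 and Bnc1 kept their direction and side of the threshold in all 14 alternatives. That of Elovl4 did so in the 12 in which it was tested. Its mean was under the filter at a minimum of 5 FPKM and without Bnc1tr/tr replicate 1. Not all alternatives could move a fold change, since the filters, variance settings and replicate block leave it as it was. Leaving out a WT library could not move that of Fads2 either, as its WT values were all 0. Log2 fold changes ran from 3.50 to 7.12 for Fads2, 1.07 to 1.47 for Elovl1, 1.34 to 4.30 for Elovl4 and 0.65 to 1.06 for Elovl5. Fads1 was higher in all 10 alternatives of the fit with no filter (0.51 to 2.51), all of which (no filter together with the block, another pseudocount, another scaling or a library left out) were chosen after seeing the data. The number of members called lower was 1 instead of 0 with upper-quartile and with median-ratio scaling, through Elovl7. Fads3 turned to -0.10 without Bnc1tr/tr replicate 1. Elovl3 turned to -0.13 with a pseudocount of 0.1, to -0.17 without Bnc1tr/tr replicate 1 and to -0.031 without WT replicate 1. Elovl6, not called in the reported fit, was called with a pseudocount of 0.1 (2.09, limma adjusted p = 0.022) and without Bnc1tr/tr replicate 3 (0.69, limma adjusted p = 0.013). Of the pathway lists, the other desaturases had 2 calls instead of 1 with no filter, upper-quartile and median-ratio scaling. With no filter the added call was Scd2, as higher. The elongation partners, with 2 calls, had 1 with a pseudocount of 0.1, 4 with upper-quartile scaling, 3 with median-ratio scaling and 1 to 3 when a library was left out. The users, with 1 call, had 2 with no filter, and the regulators, with 2, had 1 at a minimum of 5 FPKM, 1 with median-ratio scaling, 3 with quantile normalization and 1 to 2 when a library was left out. The cause of these changes was not tested. Scaling also moved the balance of all calls, from 75.8% higher (2547 higher, 811 lower) to 50.1% with upper-quartile (1812 and 1804), 55.5% with median-ratio (1925 and 1543) and 46.6% with quantile scaling (1637 and 1877), with medians of -0.10, -0.05 and -0.10 log2. A minimum of 5 FPKM left 1413 higher and 633 lower calls, and there were 523, 535 and 416 lower calls without Bnc1tr/tr replicate 1, Bnc1tr/tr replicate 3 and WT replicate 2. Counts of 1 when a library was left out came from the loss of Hacd4 and of Mbtps2. Nothing in the labels says whether the replicate numbers pair the libraries. The paper's methods state that littermates were compared, without saying which libraries share a litter. The deviations of same-numbered libraries from their group means correlated at 0.28, -0.03 and 0.12, and not every library correlated best with its own number. Such correlations cannot settle whether the libraries were paired. With the number as a replicate block, 2781 genes were called higher and 952 lower, and the block gave log2 fold changes of 3.89 for Fads2, 1.35 for Elovl1, 1.85 for Elovl4, 0.92 for Elovl5 and -0.34 for Elovl7, with the same calls. Depth limits Fads1, Fads3, Elovl2, Elovl3 and Elovl6, which rest on at most 65 estimated fragments per library.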

Other observations

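The genes whose levels over the 6 libraries were most like those of Elovl5, by the root mean square difference of log2(FPKM + 1), were Tmem70 (0.12), Hmgcs1 (0.16) and Klf17 (0.17). Hmgcs1, the synthase that feeds the cholesterol pathway, was 173.91, 173.21 and 175.92 FPKM in Bnc1tr/tr and 100.71, 80.51 and 93.66 FPKM in WT. The genes most like Fads2 were Hopx (0.18), 4930523C07Rik (0.20) and Mmp3 (0.21). Mmp3, a secreted matrix protease, was 15.52, 11.99 and 9.11 FPKM in Bnc1tr/tr and 0, 0 and 0.17 FPKM in WT. Hopx, a homeodomain-only protein, was 15.61, 11.04 and 10.97 FPKM in Bnc1tr/tr and 0, 0.20 and 0.16 FPKM in WT. Likeness of level over 6 libraries, which all share the contrast of genotype, is a description and carries no test.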
